A study of Mus musculus with 4 samples.

Results

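The peaks described here are H3K4me3 peaks that lay deep inside protein-coding genes of mouse macrophages and were called in both genotypes of the study. They were the wild-type H3K4me3 peaks that fell wholly inside an mm10 RefSeq protein-coding gene, more than 5000 bp from both ends of every annotated gene, and that overlapped a peak of the knockout by at least 1 bp. The rule selected 3485 of 31398 wild-type H3K4me3 peaks (11.1%), and the 3485 are called deep shared peaks below. The peaks were thus chosen by their position and by the H3K4me3 calls of both genotypes, so presence in both is a property of the selection and not a result.

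The study profiled histone marks by chromatin immunoprecipitation and sequencing (ChIP-seq) in peritoneal macrophages, which had been drawn into the abdominal cavity by thioglycollate broth, a sterile irritant, and kept in DMEM with 10% serum. All mice were C57BL/6 and 8 weeks old. The groups were wild type and Sun-/-, and the labels give no further name for the deleted gene, nor the number of animals or whether animals were pooled. There was 1 library per mark and genotype, for H3K4me3 and H3K9me3, so genotypes are compared without replicates and without p-values. Intervals are exact 95% intervals that cover counting error only. The H3K4me3 libraries held 29681491 filtered tags (single reads, at most 1 per position) in wild type and 26748289 in knockout, and the H3K9me3 libraries 27727997 and 28586946. Of 10 macrophage marker genes, all but Msr1 (9) were marked by H3K4me3 at an end of the gene in wild type and in knockout.

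Trimethylation of lysine 4 of histone H3 is laid down by the SET1 and MLL methyltransferase complexes and is known above all from the start sites of transcribed genes and from CpG islands, whose unmethylated CpG pairs help to recruit those complexes. A peak inside a gene can mark an alternative promoter, from which a shorter transcript of the same gene starts, and weaker H3K4me3 also occurs at active enhancers inside genes. H3K9me3 is the mark of constitutive heterochromatin and of silenced repeats. Runx1, Mitf, Pparg, Rara and Ikzf1, which encode transcription factors of blood cells and macrophages, are textbook cases of genes with more than 1 promoter.

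Sequences upstream of listed start sites were available from RefSeq (GRCm38.p6, the same assembly as mm10) for 32851 starts of 27025 genes. The following 250-base stretches end just before a listed start and are shown because they set starts inside a deep shared peak beside starts of the same gene outside one. Each is printed 5′ to 3′ in the direction of transcription, with every CpG pair in capitals.
Runx1, start at the 5′ end of the gene (chr16:92826075-92826324, minus strand): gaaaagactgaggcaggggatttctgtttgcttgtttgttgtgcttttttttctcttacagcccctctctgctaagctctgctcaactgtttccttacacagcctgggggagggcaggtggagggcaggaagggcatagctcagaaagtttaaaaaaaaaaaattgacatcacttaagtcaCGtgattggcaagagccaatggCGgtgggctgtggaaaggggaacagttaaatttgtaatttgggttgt
Runx1, internal start in a deep shared peak (chr16:92697330-92697579, minus strand): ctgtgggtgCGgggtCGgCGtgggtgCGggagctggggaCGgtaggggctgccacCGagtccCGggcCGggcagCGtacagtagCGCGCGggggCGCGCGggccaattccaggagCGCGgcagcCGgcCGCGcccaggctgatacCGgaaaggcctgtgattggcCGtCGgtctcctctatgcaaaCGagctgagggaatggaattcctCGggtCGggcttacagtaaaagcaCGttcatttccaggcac
Dab2, start at the 5′ end of the gene (chr15:6299539-6299788, plus strand): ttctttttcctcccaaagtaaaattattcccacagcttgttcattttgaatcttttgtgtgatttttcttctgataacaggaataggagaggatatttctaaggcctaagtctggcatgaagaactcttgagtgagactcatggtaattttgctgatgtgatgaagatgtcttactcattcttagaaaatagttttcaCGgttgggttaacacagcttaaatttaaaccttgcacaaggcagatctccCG
Dab2, internal start in a deep shared peak (chr15:6386498-6386747, plus strand): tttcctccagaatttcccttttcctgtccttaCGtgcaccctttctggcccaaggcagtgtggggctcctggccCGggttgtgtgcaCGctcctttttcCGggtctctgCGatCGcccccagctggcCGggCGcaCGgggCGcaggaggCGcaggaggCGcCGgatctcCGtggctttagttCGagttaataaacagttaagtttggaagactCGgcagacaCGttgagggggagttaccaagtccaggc
Rreb1, internal start in a deep shared peak (chr13:37826662-37826911, plus strand): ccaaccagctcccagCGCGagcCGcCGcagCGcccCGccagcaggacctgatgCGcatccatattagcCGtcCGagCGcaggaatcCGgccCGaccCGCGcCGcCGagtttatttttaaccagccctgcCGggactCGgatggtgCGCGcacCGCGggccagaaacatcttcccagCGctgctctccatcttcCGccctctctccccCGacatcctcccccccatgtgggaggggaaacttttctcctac
Rreb1, internal start outside any peak (chr13:37888184-37888433, plus strand): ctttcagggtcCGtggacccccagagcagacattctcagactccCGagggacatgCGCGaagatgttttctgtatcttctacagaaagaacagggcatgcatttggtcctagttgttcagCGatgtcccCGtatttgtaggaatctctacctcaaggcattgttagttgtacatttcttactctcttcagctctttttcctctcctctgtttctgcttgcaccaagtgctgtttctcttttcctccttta
Lmna, internal start in a deep shared peak (chr3:88503353-88503602, minus strand): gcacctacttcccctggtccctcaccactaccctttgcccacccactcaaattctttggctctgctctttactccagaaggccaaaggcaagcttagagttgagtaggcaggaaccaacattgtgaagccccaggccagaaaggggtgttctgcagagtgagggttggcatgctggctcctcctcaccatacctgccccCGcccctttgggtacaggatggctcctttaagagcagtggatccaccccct
Serpinb6b, internal start in a deep shared peak (chr13:32965011-32965260, plus strand): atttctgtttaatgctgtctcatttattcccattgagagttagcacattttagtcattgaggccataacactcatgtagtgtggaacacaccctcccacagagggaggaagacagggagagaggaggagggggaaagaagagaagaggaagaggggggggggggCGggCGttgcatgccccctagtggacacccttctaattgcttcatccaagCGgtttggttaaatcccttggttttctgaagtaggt

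Runx1 encodes a master transcription factor of blood formation. Its internal stretch held 27 CpG pairs and the stretch at the 5′ end 2. The internal start, 128745 bp into the gene, lay in a peak of 528 tags in wild type and 393 in knockout. The start at the 5′ end lay outside any peak, 104 bp from a wild-type peak of 193 tags and 188 bp from a knockout peak of 108 tags. Dab2, an endocytic adaptor, showed the same arrangement with a wider gap. Its internal stretch held 17 CpG pairs under a peak of 444 tags in wild type and 240 in knockout, whereas the stretch at the 5′ end held 2 and the nearest peak was 39429 bp away in wild type and 16801 bp away in knockout. Rreb1, a zinc finger protein downstream of RAS, had 25 CpG pairs at the internal start inside a peak of 944 and 680 tags, and 6 at an internal start 110052 bp into the gene, whose nearest peak was 7228 bp away in wild type and 5021 bp away in knockout.

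The last 2 sequences show the less frequent case of a marked start with few CpG pairs. The Lmna stretch, from the gene of lamin A and C, held 1 CpG pair, and its peak held 701 tags in wild type and 539 in knockout. The Serpinb6b stretch, from a gene of an intracellular protease inhibitor, held 3, and its peak held 80 and 65 tags. So a start with a CpG observed-to-expected ratio of 0.04 over its 300-bp window carried a stronger peak at Lmna than a start with a ratio of 0.24 did at Serpinb6b.

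Over all listed starts, 1881 of 1430 genes lay inside a protein-coding gene and more than 5000 bp from every gene end. Of these internal starts, 603 (32.1%, interval 29.95 to 34.2%) lay in a deep shared peak, in 500 genes. Every one of the 603 belonged to a gene that held the peak, which follows from the distance rule and is not a result. A further 1010 had no H3K4me3 peak of either genotype within 1000 bp. For comparison, 38.4% of 28123 starts at gene ends lay in a peak of both genotypes. The starts at gene ends were not limited to protein-coding genes, so these shares are not like for like. The share in a deep shared peak rose with the CpG observed-to-expected ratio of the window from 250 bases before to 50 after the start. It was 10.98% of 1038 starts with a ratio up to 0.35, 34.0% of 400 starts between 0.35 and 0.6, and 79.7% of 443 starts above 0.6. The 3 intervals, 9.15 to 13.04%, 29.4 to 38.9% and 75.6 to 83.3%, did not overlap.

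The windows of internal starts in a deep shared peak resembled those of marked starts at gene ends more than those of unmarked internal starts. Their median CpG ratio was 0.66, against 0.22 at internal starts without a peak within 1000 bp and 0.78 at gene-end starts in peaks of both genotypes, and the median GC content was 61.7%, 48.0% and 63.3% in the same order. The GC box, searched as GGGCGG on both strands, was present in 62.9% of the windows in a deep shared peak, in 10.1% of the windows without a peak, in 69.1% of the marked gene-end windows and in 35.7% of all windows in the table. This motif contains a CpG, so its share moves with CpG content. The C/EBP site below also contains one. Motifs of macrophage factors gave lower shares. Their strings differ from GGGCGG in length and letters, so shares of different motifs are not comparable. The AP-1 site, searched as TGANTCA, stood in 6.97% of windows in a deep shared peak, 10.2% without a peak, 4.01% at marked gene ends and 7.81% of all. The PU.1 site GAGGAAGT stood in 2.99%, 2.18%, 2.80% and 3.20% in the same order, and the interval in a deep shared peak, 1.78 to 4.68%, held the other 3 values. The C/EBP site TTGCGCAA stood in 0.166%, 0%, 0.250% and 0.183%, which is 1 window in a deep shared peak and none without a peak. All motifs were searched on both strands, none contains another, and a match says only that these letters are in the window.

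**Figure D1:**
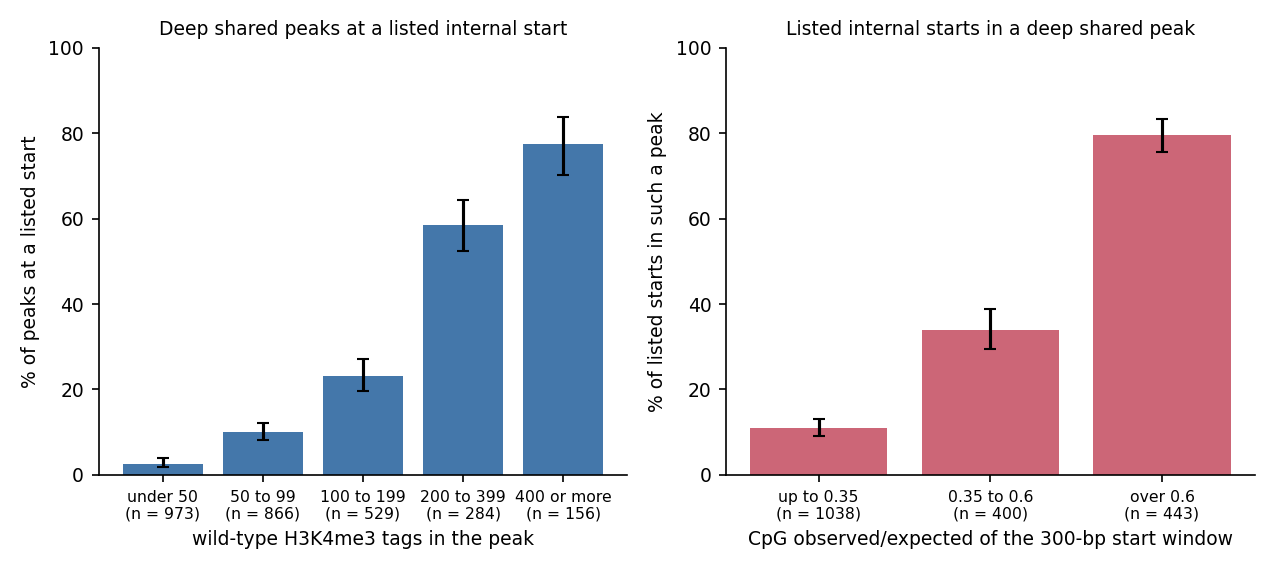
Left, share of deep shared peaks that hold a listed start (y axis, %) by wild-type H3K4me3 tags in the peak (x axis), over peaks whose host gene is in the table of starts. Right, share of listed internal starts that lie in a deep shared peak (y axis, %) by CpG observed-to-expected ratio (x axis). Bars are shares, lines are exact Clopper-Pearson 95% intervals and n is the number of peaks or starts: the left bars climb from 2.67% to 77.6% and the right bars from 10.98% to 79.7%.

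Seen from the peaks, 2808 of the 3485 had a host gene in the table of starts. A listed start lay inside 523 of these (18.6%, interval 17.2 to 20.1%), in 500 hosts, and inside none of the other 2285. For 677 peaks the host was not in the table. The table is not complete, so a peak without a listed start is not shown to lack a start. Peaks at a listed start held a median of 228 tags over 1565 bp in wild type and 157 tags over 1411 bp in knockout. The peaks without held a median of 58 tags over 868 bp in wild type and 48 tags over 808 bp in knockout. The share at a listed start was 2.67% below 50 wild-type tags, 10.0% from 50 to 99, 23.3% from 100 to 199, 58.5% from 200 to 399 and 77.6% from 400 tags up. Among peaks of at least 200 tags, 287 held a listed start and 153 did not (65.2% at a start). In 67 peaks the start was not alone, with at least 2 listed starts under the same peak.

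**Figure D2:**
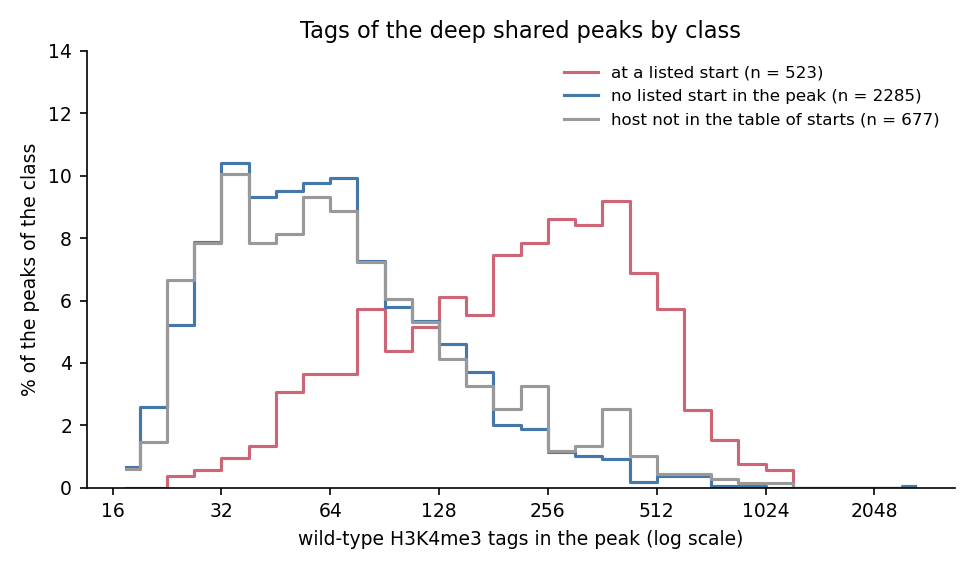
Share of the peaks of each class (y axis, %) by wild-type H3K4me3 tags in the peak (x axis, log scale), for deep shared peaks at a listed start, without a listed start, and with a host gene outside the table of starts. The curve of the 523 peaks at a listed start lies to the right of the others, with a median of 228 tags against 58 and 62.

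As a class, the deep shared peaks were small. Their median was 67 wild-type tags (quartiles 40 and 130, range 17 to 2535), a width of 960 bp and a density of 69.0 tags per kb. In knockout the median was 54 tags (range 17 to 2415) over 887 bp. The 14566 shared peaks within 1000 bp of a gene end had medians of 228 tags, 1547 bp and 142 tags per kb, and the 1749 shared peaks outside genes and more than 5000 bp from gene ends had a median of 48 tags. The caller's own score was 100 or more in each list for 1381 of the 3485 deep shared peaks. All deep shared peaks together covered 4.13 Mb and held 1.37% of the filtered wild-type tags. The selection itself moved with peak size. Of 6721 deep wild-type peaks 51.9% (interval 50.6 to 53.1%) met a knockout peak, against 88.6% of 16439 peaks at gene ends, but the share rose from 33.2% of deep peaks below 50 tags to 96.8% of those with at least 400. Within a tag class the deep share stayed under that at gene ends, with 64.6% against 80.2% from 50 to 99 tags and 94.7% against 99.3% from 200 to 399.

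The peaks with most wild-type tags included several in genes of transcription factors. Rara and Rarg encode retinoic acid receptors, Rreb1 a zinc finger protein and Runx2 the transcription factor of bone-forming cells. Rara had a deep shared peak of 1035 tags in wild type and 756 in knockout, 187 and 144 tags per kb. Rarg had 979 and 550 tags, with a width of 6032 bp in wild type and 3977 bp in knockout, so that the densities were closer, 162 and 138 tags per kb. Runx2 had 924 and 669 tags. Ptch1, the receptor of hedgehog ligands, had 1069 and 782 tags, and Pdgfb, a platelet-derived growth factor, had 1142 and 917. In all 5 genes the knockout library, which held fewer filtered tags in all, held fewer tags in the peak. Nav2, a neuron navigator protein, followed with 1068 and 748 tags in a peak 83008 bp from the nearest gene end. Sbno2, a transcriptional co-regulator induced by interleukin 10, had 969 and 729, and Jade1, a subunit of a histone acetyltransferase complex, 904 and 632. The peak with the most tags, in Tmem267, is described below with the H3K9me3 results.

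The 3485 peaks fell in 2297 host genes, of which 1590 held 1, 435 held 2 and 272 held 3 or more. Maml3, a co-activator of Notch signalling, held 10 deep shared peaks of 26 to 195 tags in wild type and 24 to 162 in knockout, none at a listed start. Its peak at the 5′ end held 818 and 618 tags, above all of them. Gse1, a subunit of a histone deacetylase complex, held 9, and Abr, Chd9, Nav1 and Zfhx3 held 8 each. Runx1 held 7, with 528, 291, 104, 76, 55, 54 and 52 wild-type tags and 393, 231, 77, 74, 56, 74 and 44 knockout tags. The peaks of 76 and 54 wild-type tags met the same knockout peak of 74 tags. Only the peak of 528 tags held a listed start, and the peak of 291 tags lay beside it, centred 130.7 kb into the gene. The remaining 5 were scattered between 24.4 and 205 kb from the 5′ end. Rreb1 held 4 with 944, 314, 71 and 67 wild-type tags and 680, 257, 54 and 76 knockout tags, beside a peak of 469 and 360 tags at its 5′ end. Its strongest mark thus lay 48.4 kb inside the gene, and only in the peak of 67 tags did the knockout library hold more tags.

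**Figure D3:**
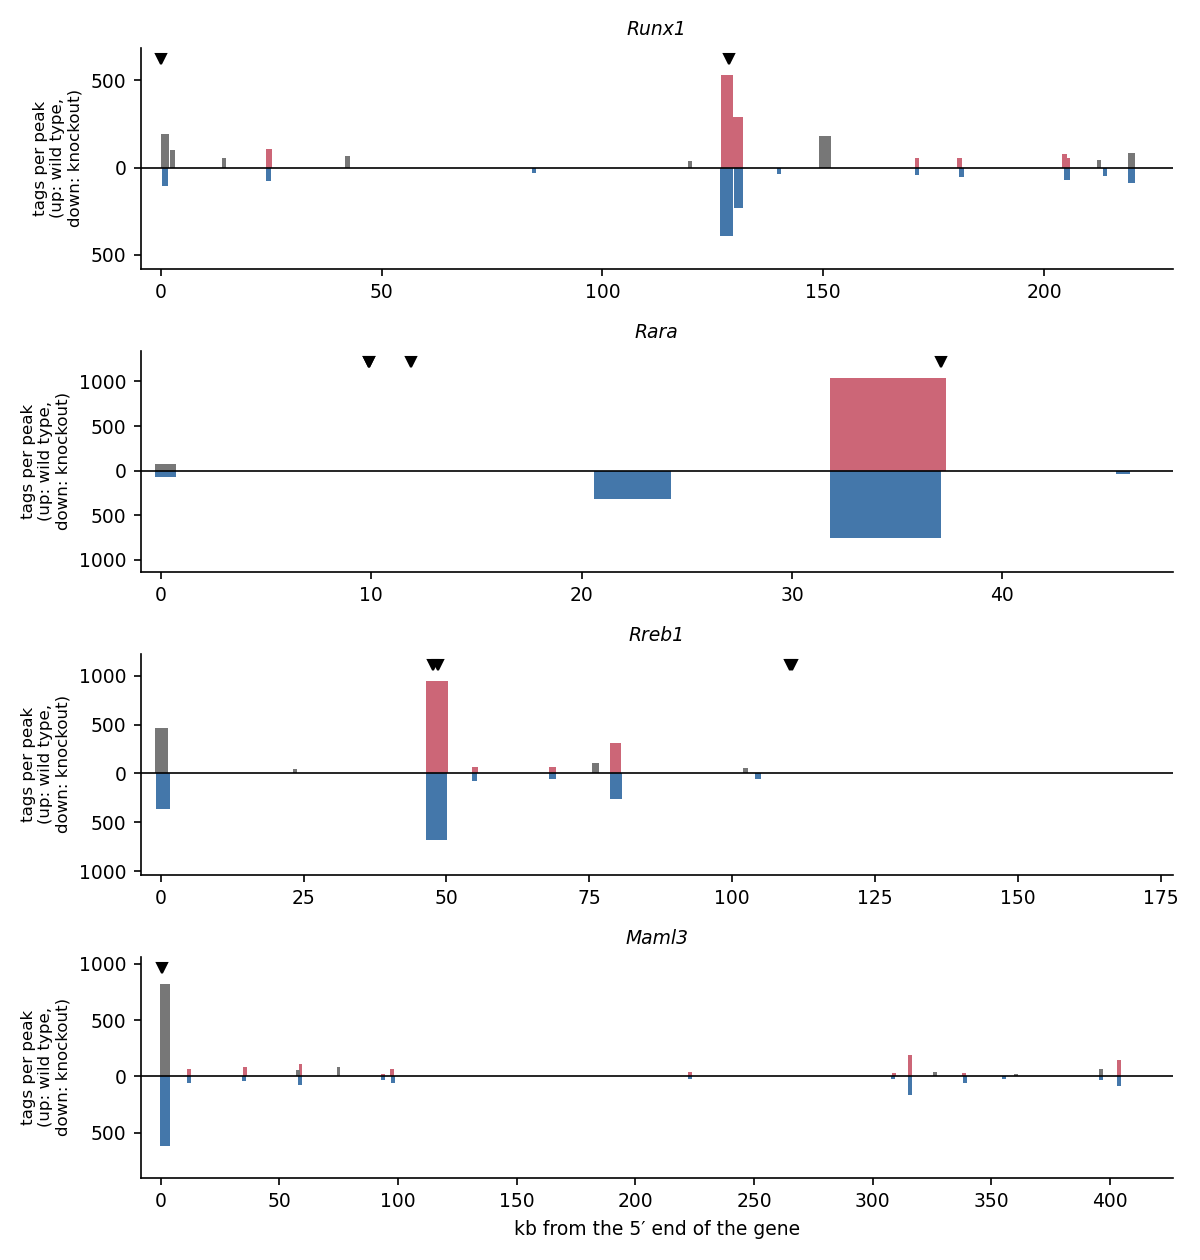
H3K4me3 peaks along Runx1, Rara, Rreb1 and Maml3 (x axis, kb from the 5′ end of the gene; y axis, tags per peak, wild type upward and knockout downward). Bar width is peak width, with a minimum for visibility; red bars are the wild-type peaks described here, grey bars other wild-type peaks, blue bars all knockout peaks, and triangles listed starts: in Runx1, Rara and Rreb1 the tallest bars, with 528, 1035 and 944 wild-type tags, stand inside the gene, and in Maml3 the tallest, with 818, stands at the 5′ end.

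Deep shared peaks were not restricted to genes whose 5′ end carried the mark. Of protein-coding genes with sequence more than 5000 bp from every gene end, 17.1% of 13514 held such a peak, at 4.44 peaks per Mb of that sequence. The density was 5.11 per Mb in genes with an H3K4me3 peak within 1000 bp of the 5′ end in both genotypes and 3.46 per Mb in genes without one in either. By gene length, these densities were 7.79 and 6.30 at 10 to 50 kb and 6.88 and 6.16 at 50 to 100 kb. They were 6.22 and 5.21 at 100 to 200 kb and 2.85 and 1.54 above 200 kb. Genes with an unmarked 5′ end held 595 deep shared peaks in 414 hosts, with a median of 86 tags, and 34.8% of them lay at a listed start. Genes with a 5′ end marked in both held 2114 in 1355 hosts, with a median of 64 tags and 13.6% at a listed start. Sbno2, Runx2 and Jade1, described above, belonged to the unmarked hosts. So did Rbpj, the DNA-binding partner of Notch, with 840 and 551 tags 34056 bp into the gene, and Gphn, which encodes gephyrin, with 761 and 510 tags 9792 bp into it. Both held a listed internal start. Mbnl1, a splicing regulator, had no peak within 27696 bp of its start near the 5′ end in wild type, and a deep shared peak of 452 and 300 tags at an internal start 28620 bp into the gene. Here the peak was narrower in knockout, and its density was 157 tags per kb in wild type and 184 in knockout.

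Along protein-coding genes the peaks were denser toward the 5′ side. Eligible sequence, more than 5000 bp from every gene end, was counted over all protein-coding genes with a known strand, with or without a peak. Parts 1 and 10 of the gene hold such sequence only in longer genes, in which the density was lower. Over 2805 peaks with a known strand, the density was 4.63 per Mb of eligible sequence in part 1 of 10 equal parts of the gene from the 5′ end, highest in parts 3 and 4 with 5.64 and 5.66, and 2.30 in part 10. Parts 1 to 3 held 31.6% of the peaks on 27.2% of the eligible sequence, and parts 8 to 10 held 19.5% on 27.0%. Peaks at a listed start declined more, from 1.16 per Mb in part 1 to 0.21 in part 10, than peaks without one, from 3.47 to 2.09. Distance to the nearest gene end had a median of 15911 bp, and 76 peaks lay more than 100000 bp from any. The farthest, in Dab1, an adaptor of the reelin pathway, lay 339769 bp away at a listed start and held 94 wild-type and 70 knockout tags. Nckap5 followed at 337595 bp with 49 and 28 tags, and Rims1, a protein of presynaptic active zones, at 247240 bp with 74 and 46. At the threshold of the rule, the nearest peaks inside lay 5005 bp (Mmp2, 81 tags), 5007 bp (Rpp40, 105 tags) and 5008 bp (Ankrd11, 41 tags) from a gene end. The nearest outside lay 5000 bp (Sema6b, 267 tags) and 4996 bp (Acvrl1, 237 tags, and Zbtb4, 91 tags).

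**Figure D4:**
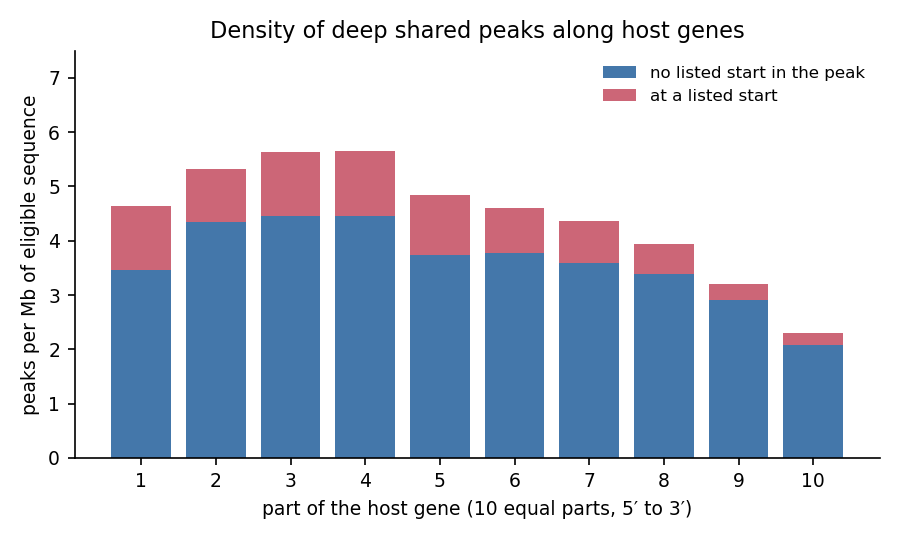
Density of deep shared peaks (y axis, peaks per Mb of sequence more than 5000 bp from every gene end) in 10 equal parts of the gene from the 5′ to the 3′ end (x axis), stacked by peaks without and with a listed start. The sequence was counted over all protein-coding genes with a known strand, with or without a peak. The stacked height is 5.66 in part 4 and 2.30 in part 10.

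Gene groups differed in how often they held a deep shared peak, beside 16.6% of all 13961 protein-coding genes longer than 10000 bp and 4.44 peaks per Mb. The groups were drawn up with earlier results of these data known. They were not matched for gene length, with which the density fell. In genes with a 5′ end marked in both genotypes it was 7.79 per Mb at 10 to 50 kb and 2.85 above 200 kb. Of 28 macrophage transcription factor genes of that length, 18 held 33 peaks, 14.2 per Mb. Spi1, which encodes PU.1, the master regulator of myeloid cells, had 725 tags in wild type and 496 in knockout. Tfeb, a regulator of lysosome genes, had 589 and 317 tags over 5049 and 3138 bp. Hif1a, the oxygen-regulated factor, had 481 and 311 tags, in a peak at a listed start with its summit 7193 bp into the gene. Mef2d had 332 and 269. The gene Ppard, a lipid-sensing nuclear receptor, held 6 weaker peaks of 67 to 198 wild-type tags, none at a listed start. Pparg and Mitf were near the calling floor, with 32 and 37 tags for Pparg and at most 45 and 39 for Mitf. The 33 peaks of the group thus ranged from 28 to 1035 wild-type tags, and 6 lay at a listed start. Peaks of hosts outside the table of starts, such as Spi1, could not be scored for this.

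Genes of actin, adhesion and phagocytosis signalling were similar, with 35 of 57 holding 71 peaks, 9.94 per Mb. Arap1 had 639 tags in wild type over 4485 bp and met 2 knockout peaks of 453 tags together. Rin2, a Rab5 exchange factor, had 533 and 332, and its relative Rin3 420 and 308. For chromatin regulators the count was 21 of 56 genes, 10.1 peaks per Mb. Hdac5, a class II histone deacetylase, had 628 and 512 tags, Brd3, a reader of acetylated histones, 580 and 407, Kdm2b, a demethylase that binds unmethylated CpG, 526 and 393, and Dnmt1, the maintenance DNA methyltransferase, 402 and 309. The last 3 lay at a listed start. Genes known for alternative promoters held a peak in 26 of 42 cases, at 4.37 per Mb beside 4.44 over all genes, and 11 of their 64 peaks lay at a listed start. Here too, peaks of hosts outside the table of starts, such as Tcf4, could not be scored.

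In NF-kB and pattern recognition signalling 9 of 38 genes (23.7%) held 14 peaks, 14.6 per Mb, with a median of 63 wild-type tags beside 67 over all deep shared peaks. None lay at a listed start, but the host of the strongest peak, Nfkbiz, was not in the table of starts. Nfkbiz, an inducible nuclear IkB protein, had 492 tags in wild type and 242 in knockout. The other 13 peaks had at most 189 wild-type tags. Nod1, a sensor of bacterial peptidoglycan, held 4 with 84, 82, 57 and 50 tags in wild type and 82, 39, 71 and 77 in knockout. Irak2, a kinase of Toll-like receptor signalling, held 83 and 61 tags in wild type against 114 and 83 in knockout. Macrophage surface and secreted proteins had 7 of 31 genes with 10 peaks, 8.78 per Mb. Lrp1, a receptor of apoptotic cells and lipoproteins, had 169 and 206 tags, and Axl, a receptor tyrosine kinase that binds apoptotic cells, had 151 and 120 in the strongest of its 3. Interferon and antiviral genes had 3 of 28, namely Adar, Ifnar2 and Rnf213. In lipid, lysosome and autophagy genes the count was 14 of 43, with Osbpl11, an oxysterol-binding protein, strongest at 400 and 265 tags.

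The lists of other cell types gave the following counts. Of 45 long neuronal genes, 10 (22.2%) held 14 peaks, at 0.328 per Mb. Cacna1c, a calcium channel subunit, was the strongest with 361 and 287 tags at a listed start. Protein-coding genes above 200 kb had 2.85 peaks per Mb with a 5′ end marked in both genotypes and 1.54 with an unmarked one. T and NK cell genes had 2 of 21 (Bcl11b with 40 and 36 tags, Cd4 with 34 and 22), B cell genes 1 of 11 (Pax5 with 29 and 31), granulocyte and mast cell genes 2 of 13 at 12.6 peaks per Mb, and mesothelial and fibroblast genes 0 of 11. The granulocyte group included Mmp9, a secreted protease that macrophages also make, with 254 and 335 tags, and Hdc, histidine decarboxylase, with 84 and 67.

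The knockout was compared with wild type over deep shared peaks with a single partner, a reciprocal overlap of at least 50% and at least 50 tags in one of the libraries, which left 2083 of the 3485. Peaks below 50 tags were left out in 1066 cases, low overlap in 174 and more than 1 partner in 162. The value is the tag density (tags per kb) of knockout divided by that of wild type, as log2, relative to the median of 17114 pairs made in the same way over all H3K4me3 peaks. In whole cell populations, a weaker mark per cell and fewer cells with the mark cannot be told apart. The contrast uses the same calls as the selection, so these values are descriptions. The deep shared peaks had a median of 0.07, with quartiles -0.07 and 0.24, and 63.2% lay above 0. The pairs at gene ends had a median of -0.02 (n = 12422) and intergenic shared pairs of 0.09 (n = 808). Scaled to filtered tags instead, all pairs had a median of -0.19 and the deep shared peaks of -0.11. The sign of the median thus depended on the scaling, which shifts every pair by the same amount.

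Very few deep shared peaks passed a 2-fold limit. At least 2-fold denser in knockout were 2 of 2083, Arhgap12 and Msl2, where 0.0409% of all pairs were called. At least 2-fold less dense were 0, where 0.0117% of all pairs were. At a limit of 1.5-fold, chosen after the data were seen, 66 were denser and 8 less dense, where 1.58% and 0.66% of all pairs were. Arhgap12 had 63 tags in wild type and 108 in knockout, a centred ratio of 1.11 (interval 0.64 to 1.58). Msl2, a subunit of a histone acetyltransferase complex, had 44 and 51 tags, over 671 and 478 bp, a ratio of 1.04 (0.43 to 1.66). By tags per peak, without width, 69 were at least 2-fold higher and 4 at least 2-fold lower, where 1.47% and 0.14% of all pairs were called. The counting interval of the density ratio excluded 0 on the higher side for 175 pairs (8.401%) and on the lower side for 63 (3.02%), where it did so for 8.73% and 7.26% of all pairs.

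The difference from gene ends was found in weaker peaks without a listed start. Deep shared peaks at a listed start had a median ratio of 0.00 (n = 464) and those without had 0.11 (n = 1234). By the larger tag count of each pair, the median without a listed start was 0.14 from 50 to 99 tags, 0.11 from 100 to 199, 0.03 from 200 to 399 and 0.00 from 400 up. At a listed start the same classes had 0.02, -0.03, 0.01 and -0.01, and at gene ends 0.03, -0.05, -0.03 and -0.02. On the filtered-tag scale the median without a listed start was -0.07 and at a listed start -0.19. With 1 library per genotype the gap between peaks with and without a listed start has no replicate check, and genotype cannot be told apart from a difference between libraries.

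**Figure D5:**
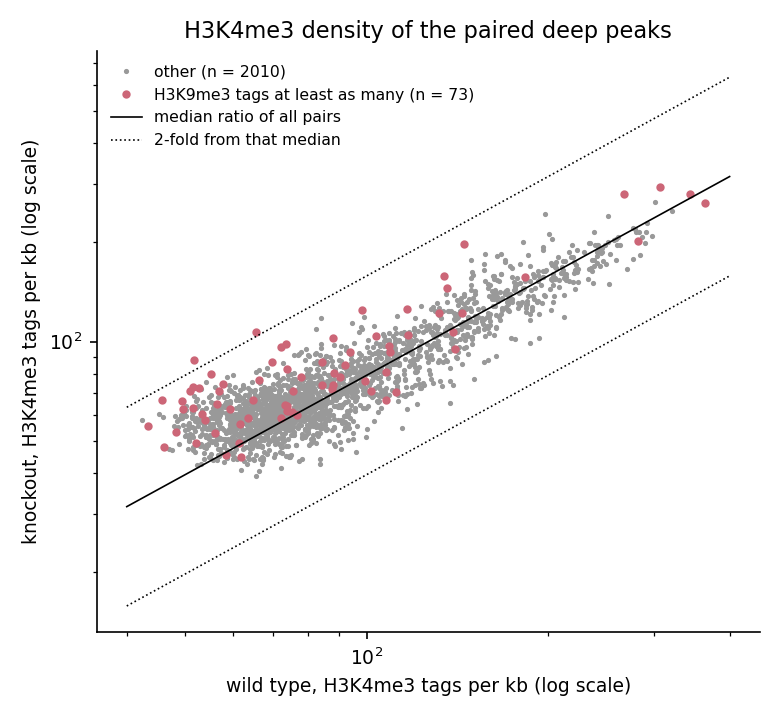
H3K4me3 density of the 2083 paired deep shared peaks in wild type (x axis) and knockout (y axis), both in tags per kb on log scales. Red points are the 73 pairs whose H3K9me3 peak held at least as many tags as the H3K4me3 peak in either genotype, grey points the other 2010; the solid line is the median ratio of all pairs and dotted lines are 2-fold from it, and only 2 points lie beyond a dotted line.

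The 10 highest and 10 lowest ratios are described next. Among pairs of at least 100 tags in total (n = 1836), the 10 highest were in Arhgap12, Cttnbp2nl, Iffo2, Ets2, Ddo, Ahr, Cdk8, Mrtfb, Ppp1r9a and Rcan1. Of these, 7 overlapped an H3K9me3 peak in both genotypes and none held a listed start. Over all 2083 pairs, without the limit on total tags, 169 overlapped such a peak in both and 464 held a listed start. Cttnbp2nl, a cortactin-binding protein relative, had 46 tags in wild type and 113 in knockout, with H3K9me3 tags of 107 and 213. Iffo2, an intermediate filament family protein without H3K9me3 there, had 226 and 161 tags but a width of 2691 bp in wild type and 1363 bp in knockout, which raised its density ratio to 0.83 (0.53 to 1.13). The 10 lowest were in Vgll4, Serpinb6b, Prdm1, Tcf4, Tec, Dram1, Ccl28, Zfp831, Mro and Lpcat3. None overlapped an H3K9me3 peak and 3 held a listed start, while the hosts Tcf4, Zfp831 and Mro, like Arhgap12 and Ahr above, were not in the table of starts. Vgll4, a cofactor of TEAD factors, had 199 tags in wild type and 90 in knockout over 1446 and 1383 bp, a ratio of -0.74 (-1.12 to -0.37). Prdm1, the repressor Blimp-1, had 171 and 118 (-0.63), and Dram1, a lysosomal regulator of autophagy, had 367 and 241 (-0.58). In Vgll4 the widths were close and the tags differed, whereas in Prdm1 the knockout peak was also wider, 1537 against 1137 bp.

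In the gene groups the median ratio was 0.13 over 20 pairs of macrophage transcription factors, 0.14 over 45 of actin and phagocytosis genes, 0.16 over 18 of lipid and lysosome genes, 0.09 over 28 of chromatin regulators and 0.04 over 43 in genes with alternative promoters, beside 0.07 over all deep shared pairs. It was 0.27 over 10 pairs of NF-kB and pattern recognition genes, 8 of them above 0, 0.27 over 8 pairs of surface and secreted proteins, all above 0, 0.37 over 3 of interferon genes, 0.33 over 2 of granulocyte genes and -0.01 over 8 of long neuronal genes. Cd36, a scavenger receptor of oxidised lipids, had 34 tags in wild type and 59 in knockout, a ratio of 0.59 (-0.04 to 1.24). F13a1, coagulation factor XIII of macrophages, had 42 and 60 tags (0.71, 0.12 to 1.31), with H3K9me3 tags of 27 and 63 at the same place. On the filtered-tag scale the medians of the NF-kB and surface groups were both 0.08, and by tags per peak they were 0.86 and 0.33. The peaks of these groups had medians of 63 and 72 wild-type tags. None was found at a listed start, though some hosts were not in the table of starts. Among all deep shared pairs without a listed start, those of 50 to 99 tags had a median ratio of 0.14, with 70.3% above 0.

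Markers of other peritoneal cells were set beside the share of filtered H3K4me3 tags in all peaks, which was 17.8% in wild type and 14.04% in knockout. Of 9 mesothelial and fibroblast markers with a listed start, 7 had a peak within 1000 bp of the 5′ end in wild type and 2 in knockout, with 444 and 75 tags in sum. Col3a1 and Pdgfra had none in either. T and NK cell markers had 9 and 7 of 22 with 1557 and 1118 tags, and Cd3d, Cd3e, Cd3g and Lck had none in either. B cell markers had 5 of 11 in both with 591 and 341 tags, and Cd79a and Cd22 had none. Granulocyte and mast cell markers had 4 and 5 of 22 with 710 tags in each. Csf3r had 250 and 240, Kit 236 and 201 and Gata2 205 and 192, while Elane, Mpo and Ms4a2 had none. The part of these cells in the ratios above was not tested.

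The selection did not use H3K9me3. The H3K9me3 peaks were small, with a median of 16 tags over 245 bp in wild type and 17 tags over 258 bp in knockout. All H3K9me3 peaks together held 1.69% and 1.62% of the filtered H3K9me3 tags, so most overlaps rest on weak H3K9me3 calls. An H3K9me3 peak overlapped 384 of the 3485 in wild type (11.02%, interval 9.998 to 12.1%), 469 in knockout (13.5%, 12.3 to 14.6%) and 292 in both (8.38%). Over all 31398 wild-type H3K4me3 peaks the shares were 12.6%, 15.3% and 8.55%, near those of the deep shared peaks. At shared gene-end peaks the shares were 16.3% and 21.0%, and at intergenic shared peaks 20.8% and 22.0%. The intervals of deep shared and gene-end peaks did not overlap in either genotype, 15.7 to 16.9% and 20.3 to 21.7% at gene ends. By H3K4me3 tags the share among deep shared peaks in wild type was not monotonic. It was 13.6% below 50 tags, 5.99% from 50 to 99, 6.68% from 100 to 199, 15.6% from 200 to 399 and 30.4% from 400 up. At gene ends it was 7.82%, 5.37%, 6.21%, 15.5% and 38.5% in the same order. Below 50 tags the deep share lay above that at gene ends, with intervals of 11.7 to 15.6% and 6.14 to 9.80%.

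Several strong H3K4me3 peaks at a listed start overlapped a much smaller H3K9me3 peak. Nol4l had 785 and 595 H3K4me3 tags in wild type and knockout and 26 and 34 H3K9me3 tags. Larp1, an RNA-binding protein that controls translation of ribosomal protein mRNAs, had 751 and 569 against 64 and 91. Slc15a4, a lysosomal histidine transporter of Toll-like receptor signalling, had 713 and 439 against 26 and 17. Its knockout peak was narrower, 1807 against 3612 bp, and its density ratio was 0.64 (0.46 to 0.81). In these 3 genes H3K9me3 tags were far below the H3K4me3 tags in both genotypes, and all 3 peaks lay at a listed start.

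A separate set of 182 deep shared peaks (5.22%, in 171 hosts) had an H3K9me3 peak with at least as many tags as the H3K4me3 peak, 132 in wild type, 161 in knockout and 111 in both. None held a listed start, over 138 with a host in the table of starts. Among wild-type peaks this was the case for 3.79% of deep shared peaks, 0.433% of shared gene-end peaks and 12.3% of shared intergenic peaks. The largest was the Tmem267 peak, 8257 bp wide, with 2535 and 2415 H3K4me3 tags in wild type and knockout and 3070 and 3043 H3K9me3 tags. Mdga2, an adhesion protein of neurons, had 348 and 305 against 507 and 472. Chl1, a neural cell adhesion molecule, had 252 and 238 against 287 and 287, and Cdk5rap2, a centrosome protein, 137 and 111 against 159 and 163. In these 4 genes all 4 libraries, of either mark and genotype, gave values of like size. By the authors' caller the set had a median fold enrichment of 6.81, beside 6.66 over all deep shared peaks. Of the 22 deep shared peaks with a fold above 20, 9 belonged to the set and 10 lay at a listed start. The 73 paired members of the set had a median centred ratio of 0.27, and the other 2010 had 0.07. On the filtered-tag scale these medians were 0.08 and -0.12. Of the 66 pairs at least 1.5-fold denser in knockout 18 belonged to the set, as did both pairs past 2-fold. Every peak of the set overlaps H3K9me3 by definition, so leaving the set out must lower that overlap. It was then 6.42% of the deep shared peaks in wild type and 8.81% in knockout, and no pair was past 2-fold in density.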

How the data were processed

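H3K4me3 and H3K9me3 ChIP-seq peak lists of wild-type and Sun-/- macrophages were used, 1 library per mark and genotype, grouped by their labels. The submitters' processing notes list the build mm10 and, without roles, the tools Bowtie 0.12.8, CASAVA 1.4, DiffBind and MACS 1.4.2. Peaks were called by MACS 1.4.2 with a p-value limit of 1e-05 and no control library, per the file headers. The deposited values were the tag count of each peak, a score (the negative log10 of the p-value, times 10), a linear ratio called fold enrichment, and positions in bp, per the file headers. Scores and folds are the authors' own and serve only to describe or filter peaks within a list. Gene positions were those of RefSeq for GRCm38.p6 (49943 genes, 21887 protein-coding, in a table) without exons, so no peak was assigned to an exon or intron. Start sites, strands and start windows came from a second RefSeq table. It held no gene of chromosome 18, and a gene absent from it has no strand or start here. Overlaps, distances and intervals were computed with Python 3.11.15, numpy 2.4.6, pandas 2.3.3 and scipy 1.17.1, and figures drawn with matplotlib 3.10.9. The overlap, distance and pairing steps were tested on simulated data. Shares have exact Clopper-Pearson 95% intervals and tag ratios exact conditional binomial ones, for counting error only.

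The peaks, the gene lists and the rules were chosen with earlier results of these data known. Genes were named by rule: hosts of the 10 peaks with most wild-type tags, of the 10 highest and 10 lowest ratios among pairs with at least 100 tags in total, of the 10 widest, of the 10 farthest from a gene end and of up to 10 with H3K9me3 in both, the 10 genes with most peaks, up to 4 per gene list, and 3 peaks on either side of 5000 bp. Other genes, and the sequences shown, were chosen after their values were seen. Windows of listed starts took the place of windows around summits, since no genome sequence was used here. A tag density ratio can move with the called width as well as with the tags, and 2 nearby peaks joined in 1 library give no pair.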

Additional observations from a re-analysis of the deposited data

How the results depend on the processing

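The direction of the median ratio between genotypes depended on the scaling, from 0.07 relative to all pairs to -0.11 scaled to filtered tags and -0.013 scaled to library totals. With at least 20 tags per pair it was 0.10 and with at least 100 tags 0.055. The number of pairs at least 2-fold denser in knockout was 2, and became 0 scaled to filtered tags, 1 scaled to library totals, 1 with 80% reciprocal overlap and 1 with at least 100 tags, and 69 higher by tags per peak. The number at least 2-fold less dense was 0, and 4 were lower by tags per peak. Tag sums over joined loci need no single partner and are not divided by length. They count tags only inside the called peaks of each genotype, so the called width still enters. They gave 113 of 2364 loci at least 2-fold higher and 32 at least 2-fold lower, and the shares over all joined loci are not given here. This setting changed the joining and the measure together. The limit of 1.5-fold, added after seeing the data, gave 66 and 8, and leaving out the peaks with at least as many H3K9me3 tags, also added then, gave 0 denser. Requiring a score of 100 or more in each list lowered the number of peaks to 1381, with medians of 139 tags and 1350 bp, and 56.1% of 2463 deep wild-type peaks then met a knockout peak. With a distance of 2500 bp that share was 53.4%, with medians of 72 tags and 998.5 bp, and with 10000 bp the medians were 63 tags and 915 bp. Counting an overlap only from 50% of the wild-type peak gave a share of 49.1%, and ends of protein-coding genes alone a median of 70 tags. The share with H3K9me3 fell to 6.17% in wild type and 6.74% in knockout with a score of at least 100 for H3K9me3, was 14.8% in knockout within 1000 bp, and was 6.42% and 8.81% without the peaks with at least as many H3K9me3 tags. The share of peaks at a listed start was 20.8% when a start within 1000 bp counted and 16.3% with a distance of 10000 bp, both added later. The cause of these shifts was not tested, apart from the smaller sets that the stricter limits leave. The other 20 values computed lay within the interval of the main value or within 1.5 times of the main count. The motif search in windows of 1000 bp around summits was not run, for want of a genome sequence here. No paired analysis was possible because each group holds 1 library. Depth limits small peaks most: at 44 and 51 tags, in Msl2, the counting interval of the log2 ratio ran from 0.43 to 1.66.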

Other observations

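Among the 153 deep shared peaks of at least 200 tags without a listed start, 6 are given here, chosen after their values were seen. Cic, a transcriptional repressor downstream of RAS signalling, had 811 tags in wild type and 572 in knockout, Bcor, a corepressor of BCL6, 687 and 453, Nr4a2, an immediate early nuclear receptor, 660 and 496, and Chd9, a chromatin remodeller, 671 and 502. Bsn, a scaffold of presynaptic active zones, had 714 and 589 tags, and Schip1 had 685 and 533 in a peak 429127 bp into the gene. Their centred log2 ratios were -0.14 for Cic, -0.04 for Bcor, 0.05 for Nr4a2, -0.04 for Chd9, -0.26 for Bsn and 0.32 for Schip1. Schip1 was thus the highest and Bsn the lowest of the 6, with intervals of 0.15 to 0.48 and -0.42 to -0.11.

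Some wide peaks were much narrower in knockout. The peak in Fam20c, a kinase of secreted proteins, was 5199 bp wide with 352 tags in wild type and met a knockout peak of 1352 bp with 83 tags, at densities of 67.7 and 61.4 tags per kb. The peak in Aopep, an aminopeptidase gene, held 667 tags over 4088 bp in wild type and met 2 knockout peaks, the larger with 274 tags over 1971 bp, and that in Tpm1, a tropomyosin gene, 404 over 3280 bp and 180 over 1199 bp. None of the 3 entered the ratios, since less than 50% of the wild-type peak was covered or the peak had more than 1 partner. Other peaks were wider in knockout, such as those in Cflar (2302 bp in wild type, 3822 bp in knockout) and Mmp9 (2635 and 3837 bp). Over all deep shared peaks the median widths were 960 and 887 bp. Of the 3485 peaks 55 met 2 knockout peaks and 2 met 3, and 112 shared a knockout peak with another wild-type peak.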
